A study of Homo sapiens with 16 samples.

Results

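The genes described here are 10 subunits of the TIP60 acetyltransferase complex, KAT5, TRRAP, EP400, ING3, DMAP1, EPC1, EPC2, BRD8, YEATS4 and MORF4L1. They were picked by name, by a rule that uses no measured value but was proposed with earlier results of these data known, and make up 10 of the 23669 genes in the count table. All 10 were present and all 10 passed the filter on low counts that left 15520 genes for testing. The study sequenced poly(A) RNA of HCT116, a human colorectal carcinoma cell line, in 8 groups of line and oxygen with 2 biological replicates each. The shNT line stably carried a non-targeting short hairpin RNA (shRNA), the shTIP60 line an shRNA against TIP60, the protein of the KAT5 gene, and the shCDK8 line an shRNA against the Mediator kinase CDK8. In the HIF1A-/- line the gene of the hypoxia-inducible factor subunit HIF1A was deleted, and its labels name no shRNA. Each line was kept in normoxia (21% oxygen) or in hypoxia (1% oxygen for 24 h). All 8 groups share the HCT116 background, shNT is the control for every altered line, and each target was altered in 1 line, so an effect of the target and of that line cannot be told apart. The count table's headings name line, oxygen and a library number, and the 2 libraries of a group are called A (lower number) and B (higher number).

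TIP60 is the catalytic subunit of a large complex, the human counterpart of yeast NuA4, that acetylates histones H4 and H2A and other proteins. Within it, TRRAP is a scaffold that meets transcription activators, EP400 is an ATPase linked to exchange of the histone variant H2A.Z, and EPC1 or its paralog EPC2 joins KAT5 and ING3 into the catalytic core. DMAP1, YEATS4, BRD8 and MORF4L1 are further subunits, the last 3 of them with domains that bind modified histones. The complex is known as a coactivator and for its part in the response to DNA breaks, and TIP60 and CDK8 have both been described as coactivators of HIF1A in hypoxic cells.

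The promoters of the members that changed with oxygen in the mean of the 4 lines are shown because HIF1, the factor stabilised in hypoxia, binds DNA at short core motifs. Of the 10 members, 8 had an entry among the RefSeq promoters (build GRCh38.p14). The entries not matched were those of ING3 and TRRAP. Each line gives the 250 bases before the transcription start, 5′ to 3′ on the gene's strand, and capitals mark each match of the core ACGTG or GCGTG on either strand. The windows were KAT5 at chr11:65712002-65712251 (plus strand), EPC1 at chr10:32378770-32379019 (minus strand), BRD8 at chr5:138178631-138178880 (minus strand), DMAP1 at chr1:44213221-44213470 (plus strand), EPC2 at chr2:148644501-148644750 (plus strand), YEATS4 at chr12:69359493-69359742 (plus strand).
KAT5: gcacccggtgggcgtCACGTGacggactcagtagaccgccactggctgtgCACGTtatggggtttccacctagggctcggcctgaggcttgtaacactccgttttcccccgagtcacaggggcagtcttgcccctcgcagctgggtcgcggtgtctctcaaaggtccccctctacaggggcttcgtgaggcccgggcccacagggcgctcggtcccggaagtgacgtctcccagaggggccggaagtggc
EPC1: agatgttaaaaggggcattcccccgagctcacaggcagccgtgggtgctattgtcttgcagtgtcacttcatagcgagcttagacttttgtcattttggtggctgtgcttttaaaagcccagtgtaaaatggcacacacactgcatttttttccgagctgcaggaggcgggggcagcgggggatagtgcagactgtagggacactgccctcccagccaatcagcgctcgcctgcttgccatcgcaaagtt
BRD8: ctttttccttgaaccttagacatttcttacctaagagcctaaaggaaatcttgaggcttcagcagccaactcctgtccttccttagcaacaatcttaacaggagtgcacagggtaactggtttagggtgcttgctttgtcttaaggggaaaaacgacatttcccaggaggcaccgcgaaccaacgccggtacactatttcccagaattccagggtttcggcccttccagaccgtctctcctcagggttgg
DMAP1: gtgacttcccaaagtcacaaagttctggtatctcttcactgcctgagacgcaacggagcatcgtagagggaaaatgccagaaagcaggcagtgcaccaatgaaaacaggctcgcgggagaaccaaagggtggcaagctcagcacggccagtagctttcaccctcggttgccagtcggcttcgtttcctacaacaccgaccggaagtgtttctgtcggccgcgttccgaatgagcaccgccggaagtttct
EPC2: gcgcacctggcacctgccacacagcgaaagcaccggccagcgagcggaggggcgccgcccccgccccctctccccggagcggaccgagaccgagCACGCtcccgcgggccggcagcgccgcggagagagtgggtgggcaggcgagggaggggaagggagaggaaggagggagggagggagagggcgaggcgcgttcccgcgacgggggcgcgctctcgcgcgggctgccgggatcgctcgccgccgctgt
YEATS4: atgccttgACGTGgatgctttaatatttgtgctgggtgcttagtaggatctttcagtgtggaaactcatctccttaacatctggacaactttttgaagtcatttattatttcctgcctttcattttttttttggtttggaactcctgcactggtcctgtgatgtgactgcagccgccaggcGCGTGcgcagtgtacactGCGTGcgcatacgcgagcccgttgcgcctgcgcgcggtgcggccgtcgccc
The core occurred 3 times before KAT5, where 1 match lay within the palindrome CACGTG and was counted on both strands. It also occurred 3 times before YEATS4 and 1 time before EPC2. No match lay in the windows of EPC1, BRD8 and DMAP1. Among the members not called with oxygen in the mean of the 4 lines, MORF4L1 had 2 matches and EP400 had 0. MORF4L1 was called higher in hypoxia in the HIF1A-/- line. At least 1 match was present in 50.5% of the 14520 promoters of this length, and CACGTG in 7.84%. A match is a description of letters and not a site. The motif CCGGAAG, searched on both strands, occurred 2 times before KAT5, 2 times before DMAP1 and 1 time before EP400, and was present in 11.6% of promoters.

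Libraries held 26620086 to 39401494 counts, and 3 counts, the limit that a count of 0 allows for counting error alone, corresponded to 0.0716 to 0.112 CPM. CPM are a gene's counts relative to the library's total, here with the total scaled by trimmed mean of M-values (TMM) factors. The 2 libraries of a group had a Pearson r of 0.987 to 0.994 across genes. CDK8 ran from 5.45 to 6.80 CPM in the shCDK8 libraries and from 21.9 to 35.1 CPM in the others, and HIF1A from 13.02 to 57.6 CPM in HIF1A-/- and from 50.6 to 113 CPM in the others, so that the ranges of HIF1A overlapped. The epithelial markers EPCAM, CDH1, KRT8, KRT18 and KRT19 were all at 25.0 CPM or more in every library, while VIL1 stayed at or below 0.339 CPM. PTPRC and CD3E (leukocytes), COL1A2 (fibroblasts), PECAM1 and CDH5 (endothelium) were at 0 to 0.138 CPM. PDGFRB (fibroblasts) was at 0.0744 to 1.45 CPM, and CD68 (leukocytes) and COL1A1 (fibroblasts) were present at 7.11 to 117 and 21.5 to 81.9 CPM. In the mean of the 4 lines the log2 change with hypoxia was 2.01 ± 0.10 (SE) for CD68 and 0.98 ± 0.07 for COL1A1, both called by edgeR, and -0.52 ± 0.31 for PDGFRB, not called. In shTIP60 against the 3 other lines the log2 difference was 1.02 ± 0.11 for CD68, 0.38 ± 0.08 for COL1A1 and 2.06 ± 0.28 for PDGFRB, all called. Against shNT alone, CD68 was called higher in shTIP60 at both oxygen levels, and COL1A1 and PDGFRB were called at neither. Their part in the members' changes was not tested. One library stood apart for the largest members: in shCDK8 normoxia, library B had 95.8 CPM of EP400 and 157 CPM of TRRAP, against 179 and 220.4 CPM in library A. The longest 10% of genes had a median log2 difference between these libraries of 0.01 (87.8% of tested genes had a length).

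Per kilobase of exon in shNT normoxia, KAT5 stood first at 23.0 ± 0.36 CPM per kb (SD, n = 2), followed by YEATS4 at 21.2 ± 2.00 and MORF4L1 at 20.4 ± 0.74 CPM per kb. These 3 neighbours lay close together, and with the longest transcript as the length MORF4L1 came first at 56.8 CPM per kb, before KAT5 at 38.4 and YEATS4 at 25.7 CPM per kb. The scaffolds were lower, TRRAP at 11.03 and EP400 at 8.38 CPM per kb, with BRD8 between them at 9.16 CPM per kb. DMAP1 followed at 6.55 CPM per kb. The lowest levels were those of EPC2 at 3.79, ING3 at 2.40 and EPC1 at 1.39 CPM per kb. The order from TRRAP downwards was the same with either length. Of the EPC paralogs, EPC2 thus had the higher level per length in these control cells.

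**Figure D1:**
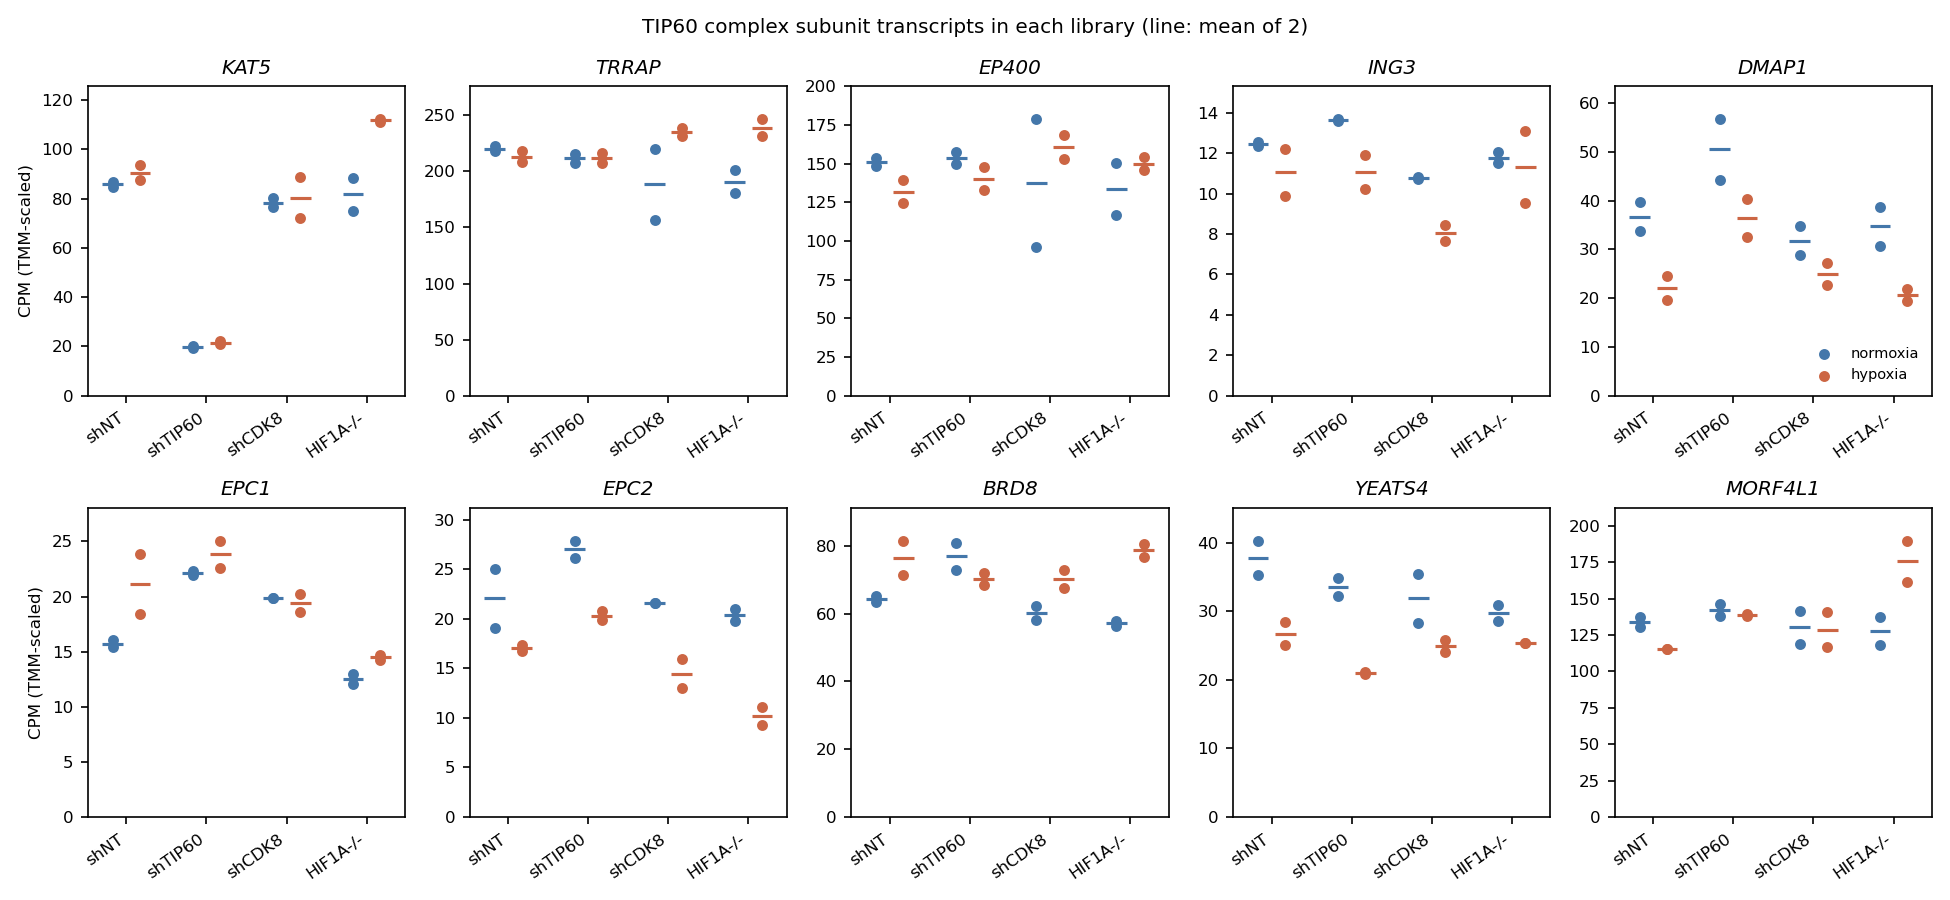
CPM (TMM-scaled, linear axes from 0) of the 10 members in each of the 16 libraries, by line, with normoxia in blue and hypoxia in orange and a line at the mean of 2. KAT5 lies between 19.1 and 22.0 CPM in the shTIP60 libraries and at 72.0 CPM or more in all others, and DMAP1, EPC2 and YEATS4 are lower in hypoxia than in normoxia in each line.

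KAT5, the catalytic subunit and the target of the shRNA, was checked first. In normoxia it was at 20.2 and 19.1 CPM in shTIP60 (libraries A and B), 84.8 and 86.7 CPM in shNT, 76.5 and 80.2 CPM in shCDK8 and 88.5 and 74.9 CPM in HIF1A-/-. In hypoxia it was at 22.0 and 21.0 CPM in shTIP60, 87.5 and 93.6 CPM in shNT, 72.0 and 88.7 CPM in shCDK8 and 111 and 112 CPM in HIF1A-/-. The 4 shTIP60 libraries lay below all 12 others without overlap, and KAT5 was the 1 member of the 10 for which they were apart from the 12 others (7.36% of tested genes were). The remaining KAT5 transcript was 22.9% of the shNT mean in normoxia and 23.7% in hypoxia. In bulk RNA, fewer cells with a transcript and less of it per cell cannot be told apart. The log2 difference from shNT was -2.12 ± 0.13 (SE, n = 2 against 2, edgeR adjusted p = 2.05e-08) in normoxia and -2.08 ± 0.13 (edgeR adjusted p = 2.40e-08) in hypoxia.

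KAT5 lies at chr11:65479467-65487075 (GRCh37, plus strand), and 38.6% of its exon bases (1439 bases) overlap exons of RNASEH2C, a subunit of ribonuclease H2, on the opposite strand. The sources used here do not state the strand setting of the counting, so reads from the overlap may be uncertain for both genes. RNASEH2C was not called in shTIP60 against shNT, with log2 differences of 0.17 ± 0.17 (SE) in normoxia and 0.34 ± 0.18 in hypoxia. SMURF1 overlaps 3.68% of the exon bases of TRRAP, and KIF20A 1.88% of those of BRD8. MORF4L1 has 6 annotated pseudogenes and EP400 has 1, none of them rows of the table, and reads shared with these copies make their counts uncertain.

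In shTIP60 cells, 3 members besides KAT5 passed the test, and these were higher. DMAP1, a subunit named for its binding of the DNA methyltransferase DNMT1, and the paralogs EPC1 and EPC2 rose against the mean of the 3 other lines over both oxygen levels. TRRAP and EP400 did not pass that test, and neither did ING3, BRD8, YEATS4 or MORF4L1. In all, 4 of 10 members were called (adjusted p under 0.05), 3 upwards and KAT5 downwards, where 47.3% of all tested genes were (24.8% up and 22.4% down), so the share of called members was near the background. The median of the absolute log2 change was 0.16 over the members and 0.28 over all tested genes. Among the further subunits described below, JAZF1 was called higher and ACTB, ACTL6A, RUVBL1, VPS72 and C20orf20 lower against the 3 other lines. Against shNT alone, JAZF1 was called higher in normoxia and not in hypoxia, and the lower genes were called at neither oxygen level. No common direction of the complex is read from these calls.

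DMAP1 was at 56.7 and 44.3 CPM in shTIP60 normoxia and 40.2 and 32.6 CPM in shTIP60 hypoxia. In shNT it was at 39.6 and 33.7 CPM in normoxia and 24.5 and 19.6 CPM in hypoxia. The remaining normoxia libraries had 34.7 and 28.9 CPM (shCDK8) and 38.6 and 30.7 CPM (HIF1A-/-), and the remaining hypoxia libraries 27.3 and 22.7 CPM (shCDK8) and 21.9 and 19.4 CPM (HIF1A-/-). At each oxygen level the shTIP60 libraries were thus above those of every other line without overlap. Against shNT alone, libraries did not overlap for 66.6% of tested genes in normoxia and 63.9% in hypoxia. The share of genes apart from all 3 lines at each oxygen level was not computed. The rise of DMAP1 was 0.63 ± 0.10 on the log2 scale against the other 3 lines (95% interval 0.41 to 0.84, edgeR adjusted p = 0.000101). Against shNT alone it was 0.72 ± 0.18 in hypoxia (edgeR adjusted p = 0.00982), and in normoxia the difference of 0.46 ± 0.18 did not pass (edgeR adjusted p = 0.0875). The hypoxia call was lost without shNT hypoxia library B (adjusted p = 0.12) or shTIP60 hypoxia library A (0.124), while the call against the 3 other lines held under all 22 alternatives run.

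EPC1 was at 22.3 and 22.0 CPM in shTIP60 normoxia and at 22.6 and 25.1 CPM in shTIP60 hypoxia. It was at 15.4 and 16.1 CPM in shNT normoxia, 19.8 and 19.9 CPM in shCDK8 normoxia, and 12.04 and 12.97 CPM in HIF1A-/- normoxia. In hypoxia it was at 18.4 and 23.9 CPM in shNT, 18.6 and 20.3 CPM in shCDK8, and 14.3 and 14.7 CPM in HIF1A-/-. The shTIP60 libraries were above all others in normoxia and overlapped 1 shNT library in hypoxia, and HIF1A-/- was the lowest line at both oxygen levels. Between shTIP60 and shNT in normoxia, libraries did not overlap for 66.6% of tested genes. Against the 3 other lines EPC1 rose by 0.44 ± 0.08 (edgeR adjusted p = 0.000306), a call that held under all 22 alternatives. Against shNT in normoxia it rose by 0.49 ± 0.14 (edgeR adjusted p = 0.0241), but leaving out any 1 of the 4 libraries ended that call: the adjusted p was 0.15 and 0.0935 without shNT library A or B, and 0.132 and 0.106 without shTIP60 library A or B. In hypoxia the difference from shNT was 0.17 ± 0.14 (edgeR adjusted p = 0.426).

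EPC2 was at 26.1 and 27.9 CPM in shTIP60 normoxia, 19.1 and 25.0 CPM in shNT, 21.5 and 21.6 CPM in shCDK8 and 19.8 and 21.0 CPM in HIF1A-/-. In hypoxia it was at 19.8 and 20.8 CPM in shTIP60, 16.7 and 17.4 CPM in shNT, 15.9 and 12.98 CPM in shCDK8 and 9.33 and 11.1 CPM in HIF1A-/-. At each oxygen level the shTIP60 libraries were the highest, with no overlap. Against shNT alone, 66.6% of tested genes did not overlap in normoxia and 63.9% in hypoxia, and the share against all 3 lines was not computed. The rise of EPC2 against the 3 other lines was 0.46 ± 0.09 (edgeR adjusted p = 0.000462) and held under all 22 alternatives. Against shNT alone the differences of 0.29 ± 0.15 in normoxia and 0.25 ± 0.16 in hypoxia did not pass.

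The intervals bound what could have been missed for the other members. For TRRAP the 95% interval of the log2 difference between shTIP60 and the 3 other lines was -0.19 to 0.16, and for EP400 it was -0.22 to 0.28. MORF4L1 had an interval of -0.10 to 0.24, BRD8 of -0.01 to 0.27, ING3 of -0.02 to 0.39 and YEATS4 of -0.30 to 0.04. Against shNT alone, 2 members were called in normoxia (KAT5 and EPC1, with 18.4% of all genes called) and 2 in hypoxia (KAT5 and DMAP1, with 21.8% called). The comparisons of shTIP60 share their shTIP60 libraries, and those with shNT alone and with the 3 lines share shNT libraries as well.

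**Figure D2:**
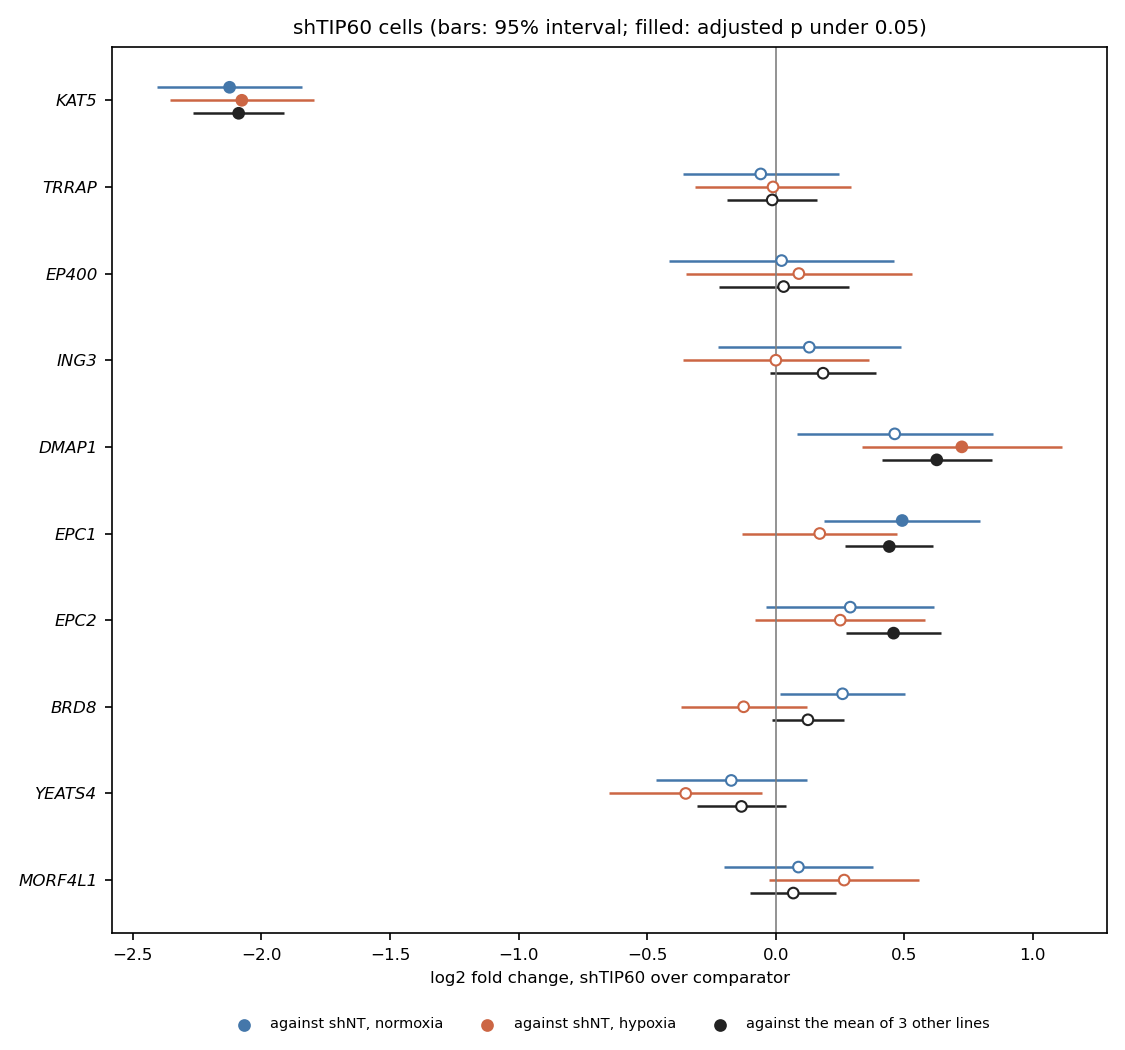
Log2 fold change of each member in shTIP60 cells against shNT in normoxia (blue), against shNT in hypoxia (orange) and against the mean of the 3 other lines (black). Bars are 95% intervals and filled points had an adjusted p under 0.05: KAT5 lies near -2.1 in all 3 comparisons, and DMAP1, EPC1 and EPC2 lie above 0.

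Hypoxia changed 7 of the 10 members in the mean over the 4 lines, 4 downwards and 3 upwards. DMAP1, EPC2 and YEATS4 fell by 0.44 to 0.59 on the log2 scale, and ING3, which reads methylated histone H3, fell by 0.24. Smaller rises were called for BRD8, EPC1 and KAT5, but with library totals as the scaling these 3 turned to values just below 0. The share of called genes in the whole table was 61.8% (30.4% up and 31.4% down), so 7 of 10 members is near the background. Between the members the median absolute log2 change was 0.19, against 0.37 over all tested genes. For no member did all 8 hypoxia libraries lie on 1 side of all 8 normoxia libraries, which 10.3% of tested genes did.

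DMAP1, whose values by library are given above, was lower in both hypoxia libraries than in both normoxia libraries of each line. By line, 62.5% to 78.3% of tested genes did not overlap between the oxygen levels, and the share that did so in every line was not computed. The mean change of DMAP1 was -0.57 ± 0.09 (SE, edgeR adjusted p = 4.59e-05), and it held under all 22 alternatives. By line the log2 change was -0.73 ± 0.18 in shNT (adjusted p = 0.00464), -0.47 ± 0.18 in shTIP60 (0.0483), -0.75 ± 0.18 in HIF1A-/- (0.00454) and -0.35 ± 0.18 in shCDK8 (0.181, not called), by edgeR. The shNT call was lost without shNT hypoxia library B (adjusted p = 0.0606) or shNT normoxia library A (0.0547). The shTIP60 call was lost without hypoxia library A (0.0557), hypoxia library B (0.304) or normoxia library A (0.37).

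EPC2 fell by 0.59 ± 0.08 in the mean of the lines (log2 change -0.59, edgeR adjusted p = 7.39e-06, held under all 22 alternatives). The change was -0.997 ± 0.16 in HIF1A-/- (edgeR adjusted p = 0.000178), where the 2 hypoxia libraries at 9.33 and 11.1 CPM were the lowest of all 16. It was -0.58 ± 0.16 in shCDK8 (edgeR adjusted p = 0.0134), -0.41 ± 0.15 in shTIP60 (0.0454) and -0.37 ± 0.16 in shNT (0.0681, not called). Without shCDK8 hypoxia library B or normoxia library B the shCDK8 call was lost (adjusted p = 0.16 and 0.0608). Leaving out any 1 of the 4 shTIP60 libraries ended the call in that line, with adjusted p of 0.193 and 0.123 without hypoxia library A or B and of 0.105 and 0.187 without normoxia library A or B.

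YEATS4, a reader of acetylated histone H3 also known as GAS41, was at 40.3 and 35.2 CPM in shNT normoxia, 34.8 and 32.2 CPM in shTIP60, 28.2 and 35.5 CPM in shCDK8 and 30.9 and 28.6 CPM in HIF1A-/-. In hypoxia it was at 25.0 and 28.5 CPM in shNT, 20.9 and 21.1 CPM in shTIP60, 24.0 and 25.8 CPM in shCDK8 and 25.3 and 25.4 CPM in HIF1A-/-. Within each line the 2 oxygen levels did not overlap, as held for 62.5% to 78.3% of tested genes by line. The mean log2 change of YEATS4 was -0.44 ± 0.07 (edgeR adjusted p = 4.60e-05) and held under all 22 alternatives. It was lower in hypoxia in every line, a pattern whose share over all genes was not computed. The change was called in shTIP60 (-0.67 ± 0.14, edgeR adjusted p = 0.00134) and in shNT (-0.50 ± 0.14, adjusted p = 0.00949), but not in shCDK8 (-0.36 ± 0.14) or HIF1A-/- (-0.23 ± 0.14). The shNT call was lost without hypoxia library A (adjusted p = 0.0799) or normoxia library A (0.102).

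ING3 was among the lowest members, at 10.8 to 13.7 CPM in the 8 normoxia libraries and 7.65 to 13.1 CPM in the 8 hypoxia libraries, which overlapped. It fell by 0.24 ± 0.08 in the mean of the lines (log2 change -0.24, edgeR adjusted p = 0.0235), and was not called in any single line. The call was lost without hypoxia library A of HIF1A-/- (adjusted p = 0.0557), shCDK8 (0.0555), shNT (0.0601) or shTIP60 (0.0647).

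BRD8, a bromodomain subunit, was at 65.0 and 63.3 CPM in shNT normoxia and 71.5 and 81.5 CPM in shNT hypoxia. In HIF1A-/- it went from 56.4 and 57.8 CPM to 76.6 and 80.6 CPM, and in shCDK8 from 58.2 and 62.3 CPM to 67.5 and 72.7 CPM. In shTIP60 the order was the opposite, 72.9 and 80.8 CPM in normoxia and 68.3 and 72.0 CPM in hypoxia. The mean change was 0.20 ± 0.06 (edgeR adjusted p = 0.0066), and -0.01 with library totals as the scaling. It was called in HIF1A-/- (0.46 ± 0.12, edgeR adjusted p = 0.00527) and in no other line. The test of the difference between the shTIP60 and shNT responses gave -0.38 ± 0.16 (95% interval -0.73 to -0.04, edgeR adjusted p = 0.771), so the opposite order in shTIP60 was not called as a difference.

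EPC1 and KAT5 had small rises. The mean change of EPC1 was 0.18 ± 0.07 (edgeR adjusted p = 0.0400) and became -0.03 with library totals. The call was kept without library A of any of the 4 hypoxia pairs or HIF1A-/- normoxia library B, and was lost without any 1 of the other 11 libraries (adjusted p from 0.0585 to 0.13). In shNT the change was 0.43 ± 0.14 (edgeR adjusted p = 0.0257), lost without hypoxia library B (adjusted p = 0.325), normoxia library A (0.136) or normoxia library B (0.0769). KAT5 changed by 0.17 ± 0.06 in the mean of the lines (edgeR adjusted p = 0.0266), which became -0.04 with library totals and whose call ended without normoxia library B of HIF1A-/- (adjusted p = 0.0637), hypoxia library B of shCDK8 (0.0946), hypoxia library B or normoxia library A of shNT (0.0571 and 0.0564), or hypoxia library A or normoxia library B of shTIP60 (0.0645 and 0.0673). In HIF1A-/- the change of KAT5 was 0.45 ± 0.13 (edgeR adjusted p = 0.0101), lost without normoxia library B (adjusted p = 0.0911). RNASEH2C, the gene that shares exon bases with KAT5, fell by 0.45 ± 0.09 in the mean of the lines (log2 change -0.45, edgeR adjusted p = 0.000304).

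The 2 scaffolds did not pass the test with hypoxia. TRRAP ran from 157 to 223 CPM in normoxia and from 207 to 247 CPM in hypoxia, with a mean log2 change of 0.15 ± 0.07 (edgeR adjusted p = 0.0806). EP400 ran from 95.8 to 179 CPM in normoxia and from 125 to 169 CPM in hypoxia, with a mean log2 change of 0.02 ± 0.10 (95% interval -0.20 to 0.24). Both ranges overlapped, and both normoxia minima came from shCDK8 library B.

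**Figure D3:**
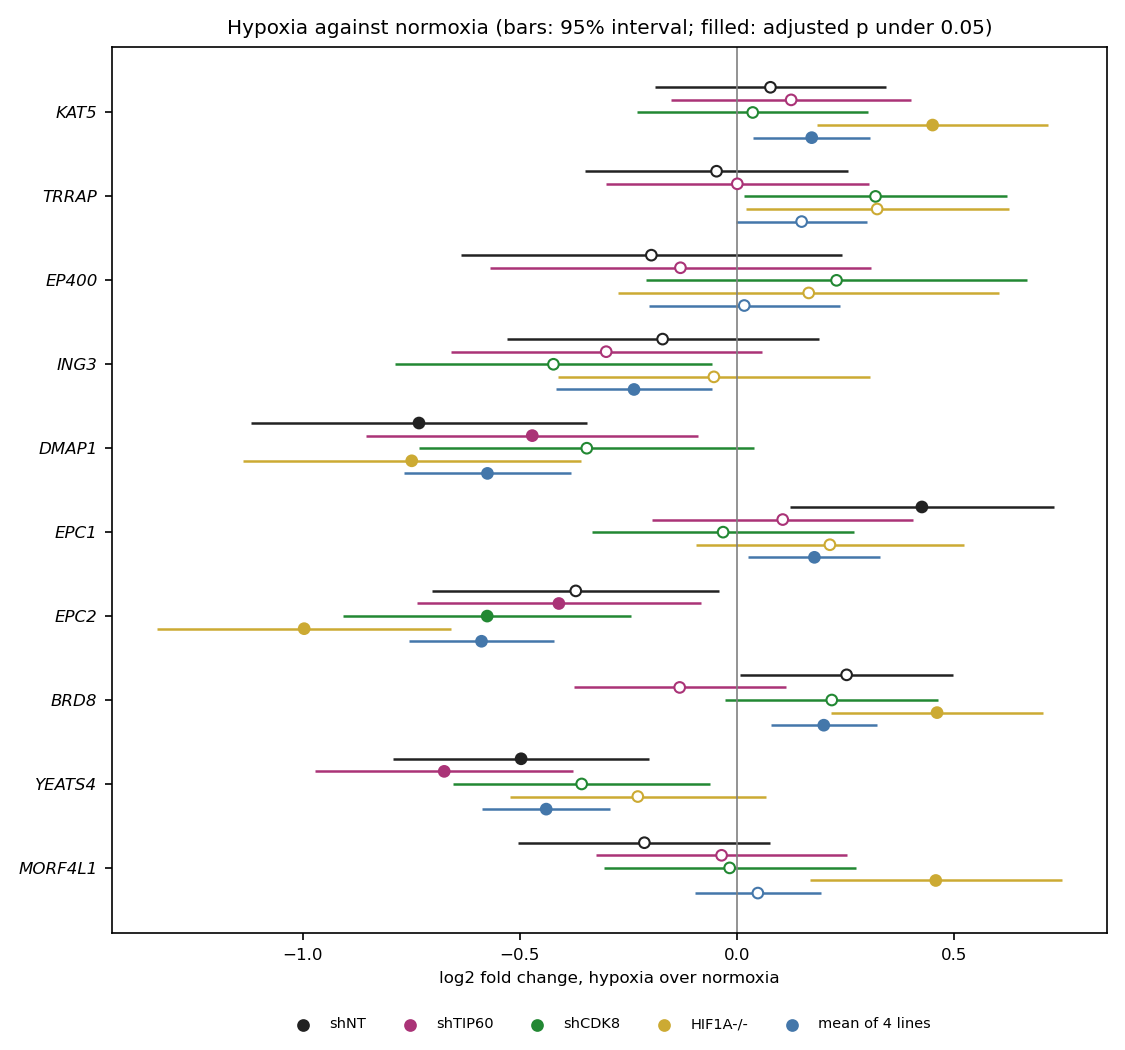
Log2 fold change of each member in hypoxia over normoxia for shNT, shTIP60, shCDK8, HIF1A-/- and the mean of the 4 lines, with 95% intervals and filled points where the adjusted p was under 0.05. DMAP1, EPC2 and YEATS4 lie below 0 in each line, and the mean rises of KAT5, EPC1 and BRD8 (0.17, 0.18 and 0.20) turn to -0.04, -0.03 and -0.01 with library totals as the scaling.

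Counted by line, hypoxia changed 3 members in shNT (40.7% of all genes called), 3 in shTIP60 (39.2%), 1 in shCDK8 (24.8%) and 5 in HIF1A-/- (38.0%). The shCDK8 count was 0 without hypoxia library B or normoxia library B and 4 without normoxia library A. Without shNT normoxia library A none of the 3 reported shNT calls was kept, and a member not called in the reported fit passed instead. Leaving out shNT hypoxia library B ended the shNT calls of DMAP1 and EPC1. The shNT call of YEATS4 ended without hypoxia library A, and that of EPC1 without normoxia library B. In shTIP60 the calls of DMAP1 and EPC2 ended without hypoxia library A, hypoxia library B or normoxia library A. That of EPC2 also ended without shTIP60 normoxia library B. Both library totals as the scaling and a fit of only the groups compared ended the HIF1A-/- calls of BRD8, KAT5 and MORF4L1, the shNT call of EPC1 and the MORF4L1 response difference given next. RLE factors and a mean of at least 5 CPM each ended the shTIP60 calls of DMAP1 and EPC2, and no filter except 1 count ended those of EPC1 in shNT and EPC2 in shTIP60. With the library letter as a block the counts were 5 in shNT and 5 in shCDK8. Libraries of the 2 oxygen levels did not overlap for 9 members in shNT, 8 in shTIP60, 6 in shCDK8 and 8 in HIF1A-/-, where 69.8%, 78.3%, 62.6% and 62.5% of tested genes did not. Whether the lines responded differently was tested directly. For shTIP60 against shNT no member differed by edgeR (1 at an unadjusted p under 0.05, 0 with DESeq2, 0.0322% of all genes called), and for shCDK8 against shNT none did either (1 unadjusted, 0 with DESeq2, 0.0387% of all genes).

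MORF4L1, a chromodomain subunit also called MRG15, differed in its response between HIF1A-/- and shNT. It was at 137 and 130.5 CPM in shNT normoxia and 115 and 116 CPM in shNT hypoxia, and at 118 and 137 CPM in HIF1A-/- normoxia and 161 and 189.8 CPM in HIF1A-/- hypoxia. Thus both hypoxia libraries were lower than normoxia in shNT and higher in HIF1A-/-. In shTIP60 it went from 146 and 138 CPM to 138 and 139.6 CPM, and in shCDK8 from 119 and 141 CPM to 117 and 141 CPM. The change was 0.46 ± 0.14 in HIF1A-/- (edgeR adjusted p = 0.0151) and -0.21 ± 0.14 in shNT (0.231). The difference between these responses was 0.67 ± 0.19 (95% interval 0.26 to 1.08, edgeR adjusted p = 0.0272). It was the 1 member of 10 called, with 16.4% of all genes called. The call ended without HIF1A-/- hypoxia library B (adjusted p = 0.106) or normoxia library A (0.0992), and without shNT hypoxia library A (0.0659) or B (0.0575) or normoxia library A (0.0988) or B (0.0515). The rise within HIF1A-/- was lost without hypoxia library B (0.139) or normoxia library A (0.141). With library totals the change of MORF4L1 in the mean of the lines, 0.05 ± 0.07 and not called, became -0.17 (adjusted p = 0.0478).

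The HIF1A-/- and shCDK8 lines were also set against shNT at each oxygen level. In normoxia no member was called by edgeR for HIF1A-/- (2 at an unadjusted p under 0.05, EPC1 and YEATS4, and 0 with DESeq2, with 11.7% of all genes called). For shCDK8 none was called either (1 unadjusted, EPC1, and 0 with DESeq2, with 13.1% of genes called), though 2 were without shCDK8 normoxia library A. In hypoxia 3 members were called for HIF1A-/- (41.1% of all genes). EPC1 fell by 0.54 ± 0.14 (log2 difference -0.54, edgeR adjusted p = 0.00692), a call lost without shNT hypoxia library B (adjusted p = 0.121) and in the fit of only the groups compared. EPC2 was lower with a log2 difference of -0.74 ± 0.16 (edgeR adjusted p = 0.00171), and MORF4L1 was higher at 0.60 ± 0.14 (edgeR adjusted p = 0.00238), and both held under all 11 alternatives. For shCDK8 in hypoxia no member was called by edgeR (1 unadjusted and 1 with DESeq2, in both cases ING3, with 27.9% of all genes called), and ING3 had a log2 difference of -0.46 ± 0.17 (edgeR adjusted p = 0.058). Without shNT hypoxia library A, 1 member was called.

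The balance of reads between the paralogs EPC1 and EPC2 differed between the oxygen levels. The ratio of their reads within a library does not depend on scaling between libraries. In normoxia it was 0.81 and 0.64 in shNT, 0.85 and 0.79 in shTIP60, 0.92 and 0.92 in shCDK8, and 0.61 and 0.62 in HIF1A-/-. In hypoxia it was 1.10 and 1.37 in shNT, 1.138 and 1.206 in shTIP60, 1.17 and 1.56 in shCDK8, and 1.53 and 1.33 in HIF1A-/-. All 8 normoxia libraries thus held fewer EPC1 than EPC2 reads and all 8 hypoxia libraries more, with medians of 0.80 and 1.27. Reads were not divided by length, and EPC1 has 11.3 kb of exon against 5.82 kb for EPC2. A ratio above 1 therefore does not mean that EPC1 had the higher level per length. This ratio was chosen after its values were seen and is a description with no test. Of the 45 pairs of members, 4 had ratios that did not overlap between the oxygen levels. They were EPC1 to EPC2, ING3 to BRD8, EPC2 to BRD8 and BRD8 to YEATS4. Among the 14758 tested genes with a count in every library, 9.34% of 108891903 pairs had such ratios, a share like that of the members.

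**Figure D4:**
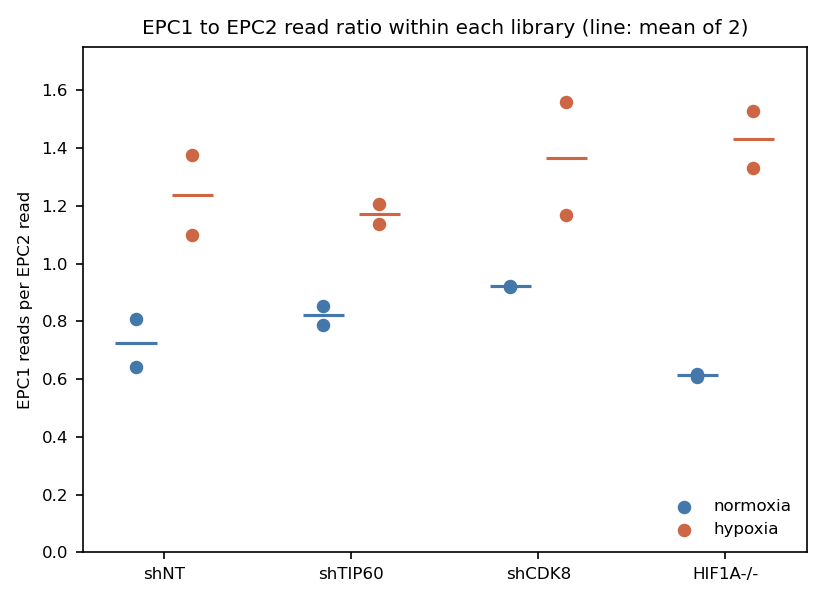
EPC1 reads per EPC2 read in each of the 16 libraries, by line, with normoxia in blue, hypoxia in orange and a line at the mean of 2. The 8 normoxia libraries lie between 0.61 and 0.92 and the 8 hypoxia libraries between 1.10 and 1.56. Reads are not divided by exon length.

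Across the 16 libraries the 45 pairs of members had Pearson r of log2 CPM from -0.70 to 0.82, with a median of -0.05. These correlations are descriptions, since libraries share line, oxygen and depth. The highest was that of the scaffolds TRRAP and EP400, with r of 0.82, which was 0.61 without shCDK8 normoxia library B. DMAP1 and EPC2 followed with r of 0.79. The lowest was that of KAT5 and DMAP1 at -0.70, which was -0.59 over the 12 libraries without shTIP60. For KAT5 and EPC1 r was -0.63 and went to -0.20 over those 12. The knockdown line moved other pairs further: without it r went from -0.21 to 0.70 for KAT5 and BRD8, and from -0.05 to 0.66 for KAT5 and MORF4L1. The lowest pair over those 12 was DMAP1 and BRD8 at -0.89 (-0.35 over all 16).

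By likeness of pattern (Pearson r of log2 CPM over 16 libraries), the genes most like KAT5 were TMED3 (0.98), GRB14 (0.97), LMO4 (0.97), FAM125A (0.96) and PTPN3 (0.96), and those most opposite were CCRL2, ITGAD, BCMO1, UNC5C and NXPE1 (-0.98 to -0.97). Without the 4 shTIP60 libraries the r was 0.76 for TMED3, 0.59 for FAM125A, 0.55 for GRB14, 0.44 for PTPN3 and 0.35 for LMO4. The 5 opposite genes had group means of 0 to 0.181 CPM in the other lines, near the level of 3 counts, so r over the 12 other libraries cannot be read for them. The closest gene to TRRAP was PRRC2C (0.93), to EP400 ZC3H3 (0.87) and to ING3 GTF2H3 (0.93). In shCDK8 normoxia, where library B stood apart for TRRAP and EP400, PRRC2C was at 191 ± 59.0 CPM (SD) and ZC3H3 at 66.0 ± 24.2 CPM. The r of these genes without that library was not computed. DMAP1 was closest to FCRLB (0.96), EPC1 to INPP4B (0.95) and EPC2 to PADI3 (0.95). BRD8 was closest to TEAD1 (0.87), YEATS4 to FIGNL1 (0.95) and MORF4L1 to MED12L (0.87).

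Of 9 further subunits of the complex, all tested, 4 rose and 2 fell with hypoxia in the mean of the lines, where 61.8% of all tested genes were called (30.4% up and 31.4% down), so the share called was near the background. JAZF1, a zinc finger subunit, rose by 0.75 ± 0.13, C20orf20 (the table's symbol for MRGBP, a partner of MORF4L1) by 0.56 ± 0.07, MBTD1 by 0.53 ± 0.11 and ACTB by 0.38 ± 0.11, all on the log2 scale. RUVBL1, a AAA ATPase shared with other chromatin complexes, had a log2 change of -0.63 ± 0.09, and the actin-related ACTL6A one of -0.37 ± 0.09. RUVBL2 (0.06 ± 0.08), the partner of RUVBL1, MEAF6 (0.15 ± 0.08) and VPS72 (0.03 ± 0.06) were not called. The median was 0.15 over these 9, 0.03 over the 10 members and -0.01 over all genes. Against the 3 other lines, 47.3% of all genes were called (24.8% up and 22.4% down). There, shTIP60 cells had higher JAZF1 (0.42 ± 0.15) and lower ACTB (-0.55 ± 0.13), ACTL6A (-0.44 ± 0.11), RUVBL1 (-0.36 ± 0.11), VPS72 (-0.31 ± 0.07) and C20orf20 (-0.21 ± 0.08). RUVBL2 (0.09 ± 0.10), MBTD1 (-0.05 ± 0.13) and MEAF6 (0.00 ± 0.10) were not called. Against shNT alone, JAZF1 was called higher in normoxia only, and the lower genes were called at neither oxygen level. Other altered lines were called higher than shNT for some of these lower genes. These were RUVBL1 in shCDK8 and HIF1A-/- hypoxia, ACTL6A in HIF1A-/- hypoxia, and VPS72 in shCDK8 at both oxygen levels. ACTB and C20orf20 were called in no altered line against shNT.

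Genes around the complex were counted over lists of named genes. The counts with hypoxia that follow stand beside 30.4% of all tested genes up and 31.4% down, and nothing particular to a list is read from them. Of 9 genes of the SRCAP complex, which loads H2A.Z and shares DMAP1, YEATS4, RUVBL1, RUVBL2, ACTL6A and VPS72 with TIP60, 5 fell and 0 rose with hypoxia. They were the ATPase SRCAP itself (-0.31 ± 0.11 on the log2 scale) and the shared DMAP1, YEATS4, RUVBL1 and ACTL6A, 4 genes already counted above as members or further subunits. Of 13 other lysine acetyltransferases 5 rose and 2 fell, with the smallest adjusted p for ESCO2 (-1.47 ± 0.09), HAT1 (-0.99 ± 0.08) and ATAT1 (0.73 ± 0.07). Of 15 relatives of members 5 rose and 1 fell, YEATS2 (1.205 ± 0.06), ING1 (0.95 ± 0.08) and ING4 (0.53 ± 0.11) among those that rose. Of 16 regulators and partners of TIP60, 5 rose and 7 fell, with ATF3, which binds and stabilises TIP60, at 1.95 ± 0.10, GSK3B at 0.67 ± 0.06 and the DNA break sensor NBN at -0.64 ± 0.06. In shTIP60 against the 3 other lines, where 24.8% of all tested genes were called up and 22.4% down, 1 of these 16 rose and 8 fell, with H2AFZ, the gene of H2A.Z, at -0.72 ± 0.09, ANP32E, the H2A.Z chaperone, at -0.67 ± 0.10 and GSK3B at -0.41 ± 0.07. There, 2 acetyltransferases rose and 3 fell, with ESCO2 at -0.90 ± 0.11, KAT2B at 0.51 ± 0.11 and HAT1 at -0.39 ± 0.09. Of the relatives 3 rose and 4 fell, with PHF16 at -0.47 ± 0.07, ING5 at 0.39 ± 0.07 and PHF17 at -0.39 ± 0.09. Of the SRCAP genes 1 rose (DMAP1) and 4 fell. The 4 SRCAP genes that fell were called at neither oxygen level against shNT alone.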

How the data were processed

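Libraries of poly(A) RNA were read with Ion Torrent chemistry, per the labels' protocols, and the authors deposited raw counts of reads per gene symbol for 16 libraries, with no scaling. The submitters' processing notes name hg19 as the build and, as tools, DESeq (1.14.0), HTSeq (0.5.4p5) and GSNAP. The sources used here do not state the annotation or the strand setting. The column headings carry no replicate number, so columns were mapped to groups only.

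The counts were tested with edgeR 4.0.16 (R 4.3.3) by the quasi-likelihood F test with robust dispersion, TMM factors, 1 coefficient per group, a filter by group (10 counts in enough libraries and 15 in total) that left 65.6% of genes, and two-sided Benjamini-Hochberg adjustment over 15520 genes at 0.05, in 15 comparisons. The fit was also run on simulated counts with 1 dispersion for all genes and changes in 1 group only. That setting is simpler than these data, and no result here rests on it. Standard errors were taken from the log2 change and F. The design left 8 residual degrees of freedom, and the common biological coefficient of variation was 0.132. The tests and intervals used each gene's total degrees of freedom after sharing of dispersion between genes, with a median of 15.8. A difference was called where the adjusted p was under 0.05. The log2 CPM used a prior count of 2. Exons and coordinates came from GENCODE 44 lifted to GRCh37, and length was the union of exons.

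Alternatives were DESeq2 1.42.0, RLE factors, library totals alone, no filter except 1 count, a mean of at least 5 CPM, only the groups compared, the replicate block, and each library left out. The members, the lists and the rule for named genes (all members, all further subunits, up to 3 called genes per other list, and the genes most like each member by r) were chosen with earlier results of these data known. For KAT5 the 5 highest and 5 lowest were named, and for each other member 1 of the 3 highest. The series' design text calls the replicates independent biological ones. Intervals and floors cover counting error only where they come from counts, since reads carry no molecular identifiers.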

Additional observations from a re-analysis of the deposited data

Results flagged for a closer look

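One result was flagged by the test of a difference between lines. It was the 1 member of 10 called there, where 16.4% of all tested genes were called. For MORF4L1, the chromodomain subunit, both hypoxia libraries were above normoxia in HIF1A-/- and below it in shNT, where the fall was not called. Its hypoxia response was larger in HIF1A-/- than in shNT cells by 0.672 on the log2 scale (edgeR adjusted p = 0.0272). The call was kept under 7 of 15 alternatives and lost under 8, with adjusted p from 0.0515 to 0.106 where it was lost.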

How the results depend on the processing

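Values for single members (with their levels per kb) and the r of TRRAP and EP400 were compared under each alternative. Of these, 1870 were counted as the same, 72 lost a call, 45 gained one, 4 reversed and 11 moved. Values counted as the same kept their side of the threshold, and may have changed sign where neither fit gave a call. Reversed values changed sign with a call in either fit. The 11 were the r of 0.61 without shCDK8 normoxia library B, an alternative added after seeing the data, and the levels per kb of the 10 members. The label of the r was set by hand, with no spread computed. The longest transcript is shorter than the union of exons for each member, so the rise of the levels per kb was fixed in advance. The 4 reversals came with library totals alone, which shifted the median of all genes in hypoxia against normoxia, averaged over the lines, from -0.01 to -0.22 (log2) and the calls from 4725 up and 4867 down to 2915 up and 7197 down: KAT5 became -0.0402, EPC1 -0.0347, BRD8 -0.0132 and MORF4L1 -0.166. Library totals alone also gave 3 called members for hypoxia in HIF1A-/- (5 in the reported fit), 4 in shCDK8 (1), 5 in shTIP60 (3) and 0 for the HIF1A-/- response difference (1). Fitting only the groups compared gave 2, 0 and 4 for hypoxia in HIF1A-/-, the HIF1A-/- response difference and shTIP60 against shNT in normoxia (2 reported). DESeq2 gave 2 for hypoxia in shCDK8, 2 for the HIF1A-/- response difference and 1 for shCDK8 against shNT in hypoxia (0 reported). A mean of at least 5 CPM gave 2, 2 and 1 for the same 3, and 1 for hypoxia in shTIP60, as did RLE factors. With 1 library left out, the counts ran from 0 to 4 for hypoxia in shCDK8, 1 to 3 in shNT, 1 to 3 in shTIP60, 0 to 1 for the HIF1A-/- response difference, 0 to 1 and 0 to 2 for shCDK8 against shNT in hypoxia and normoxia, and 1 to 2 for shTIP60 against shNT in both; a lone library is then assumed to vary like the other groups. The cause of these changes was not tested. With the longest transcript as length, levels per kb in shNT normoxia were all higher (2.13 for EPC1 to 56.8 for MORF4L1).

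The labels' replicate numbers could not be tied to columns, so a replicate block was made from the order of library numbers (A and B). Over 28 pairs of groups the deviations of same-lettered libraries correlated from 0.03 to 0.34 (median 0.12), all above 0 and above 0.1 in 18. The bar for taking the letters as pairs, every correlation above 0.1, was not met, no source used here says what the library numbers mark, and a shared batch was not settled by these values. With the replicate block the called members were 5 for hypoxia in shNT (3 in the reported fit), 5 in shCDK8 (1), 2 for the HIF1A-/- response difference (1) and 1 for shCDK8 against shNT in hypoxia (0). In each of the 8 groups DMAP1 and EP400 were higher in library A, and 13.3% of tested genes had 1 sign in all 8.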
